A study of Mus musculus with 12 samples.

Results

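The nuclear-encoded subunit genes of respiratory complex III, complex IV and ATP synthase were followed in mouse ganglion samples after spinal cord injury. Members were the protein-coding genes whose symbols name a subunit of complex III or its electron carrier cytochrome c (Uqcr genes, Cyc1 and Cycs), a complex IV subunit of the Cox4 to Cox8 families, or a gene of ATP synthase (Atp5 genes, with Usmg5 and Atpif1, whose newer names are Atp5md and Atp5if1). The annotation held 48 such genes, 10 of complex III and cytochrome c, 18 of complex IV and 20 of ATP synthase. Of these, 41 were among the 13178 genes of the AAV table and 43 among the 21650 genes of the ribose table. The 12 libraries were described as made from neurons of L4-6 ganglia that project into the sciatic nerve, although markers of other cells were present. They were taken from C57BL/6J mice aged 8 weeks at 72 h past a spinal cord injury. AAV-TKT and AAV-GFP mice carried an adeno-associated virus, given by the sciatic nerve for 4 weeks, with transketolase or green fluorescent protein. Ribose mice were treated with 10% ribose and Vehicle mice with its vehicle. Each group held 3 libraries, every group carried the injury, and no uninjured ganglia were compared. The labels name neither a promoter for the virus nor a route or duration for the ribose. They also do not say that the libraries of a group came from separate animals, so the p-values speak for the spread among these libraries alone, which may be technical.

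Complex III passes electrons from ubiquinol to cytochrome c, complex IV hands them to oxygen, and both pump protons out of the mitochondrial matrix. ATP synthase lets the protons flow back through a ring of c subunits in the membrane, and its F1 part in the matrix makes ATP. A few subunits are encoded by mitochondrial DNA, and the others, followed here, are nuclear genes whose proteins are imported. Long sensory axons depend on this machinery for transport and excitability. Transketolase is an enzyme of the pentose phosphate pathway, a side route of glycolysis that lies upstream of the mitochondrion, and ribose can enter this route.

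The values were FPKM, fragments counted per kilobase and scaled for the library, so levels of different genes can be set side by side within a table. Totals were 413635 to 456084 FPKM in the AAV libraries and 510551 to 551370 FPKM in the ribose libraries, and the read depth is unknown. Tkt, the gene in the virus, was at 223, 259 and 262 FPKM in AAV-TKT, against 106, 101.7 and 98.1 FPKM in AAV-GFP (log2 change 1.27, SE 0.0843, limma adjusted p = 0.00540). In the ribose experiment Tkt was at 106, 112 and 105.02 FPKM in Ribose, against 112, 126 and 116 FPKM in Vehicle. All 8 neuron markers were listed in both tables, and glial, fibroblast and blood-cell markers were present beside them. In such mixed samples fewer cells of a type and less RNA per cell cannot be told apart.

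Nearly all listed subunit genes were highly expressed, and their rank order was nearly the same in the groups of a table. The Spearman correlation of mean levels, a description across genes in libraries that share a table, was 0.989 between AAV-TKT and AAV-GFP over 41 members and 0.985 between Ribose and Vehicle over 43. Atp5b, the catalytic beta subunit of F1, was the most abundant member, at 680.0, 701 and 655 FPKM in AAV-TKT and 611, 678 and 547 FPKM in AAV-GFP. The alpha subunit gene Atp5a1 followed within F1, at 317, 312 and 288 FPKM in AAV-TKT and 277, 297 and 253 FPKM in AAV-GFP. Its level was less than that of Atp5b in every library of both tables.

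Complex IV genes lay closer together. Cox4i1, the ubiquitous form of subunit IV, had 322, 351 and 354 FPKM in AAV-TKT and 347, 246 and 275 FPKM in AAV-GFP. Cox8a, a small membrane subunit, had 249, 334 and 298 FPKM in AAV-TKT and 306, 296 and 272 FPKM in AAV-GFP, and Cox5a, which sits on the matrix face, had 273, 306 and 281 FPKM in AAV-TKT and 278, 254 and 248 FPKM in AAV-GFP. In AAV-TKT every Cox4i1 value lay above every Cox5a value, while Cox8a overlapped both, and in AAV-GFP all 3 genes overlapped, so most of their order is not resolved. Complex III was lower, with a median member level of 87.6 FPKM in AAV-TKT and 82.7 FPKM in AAV-GFP, against 174 and 179 FPKM for complex IV and 155 and 142 FPKM for ATP synthase, counting members with a mean of at least 10 FPKM. Its most abundant genes were Uqcrq, a small subunit next to cytochrome b, at 116, 171 and 151 FPKM in AAV-TKT and 166, 134 and 133 FPKM in AAV-GFP, and Uqcrc1, a core protein, at 156 ± 13.5 FPKM in AAV-TKT and 136 ± 10.1 FPKM in AAV-GFP (SD, n = 3 each). Uqcrh, the hinge protein beside cytochrome c1, varied more between AAV-GFP libraries than these, at 107, 134 and 117 FPKM in AAV-TKT and 129, 67.3 and 106 FPKM in AAV-GFP.

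**Figure D1:**
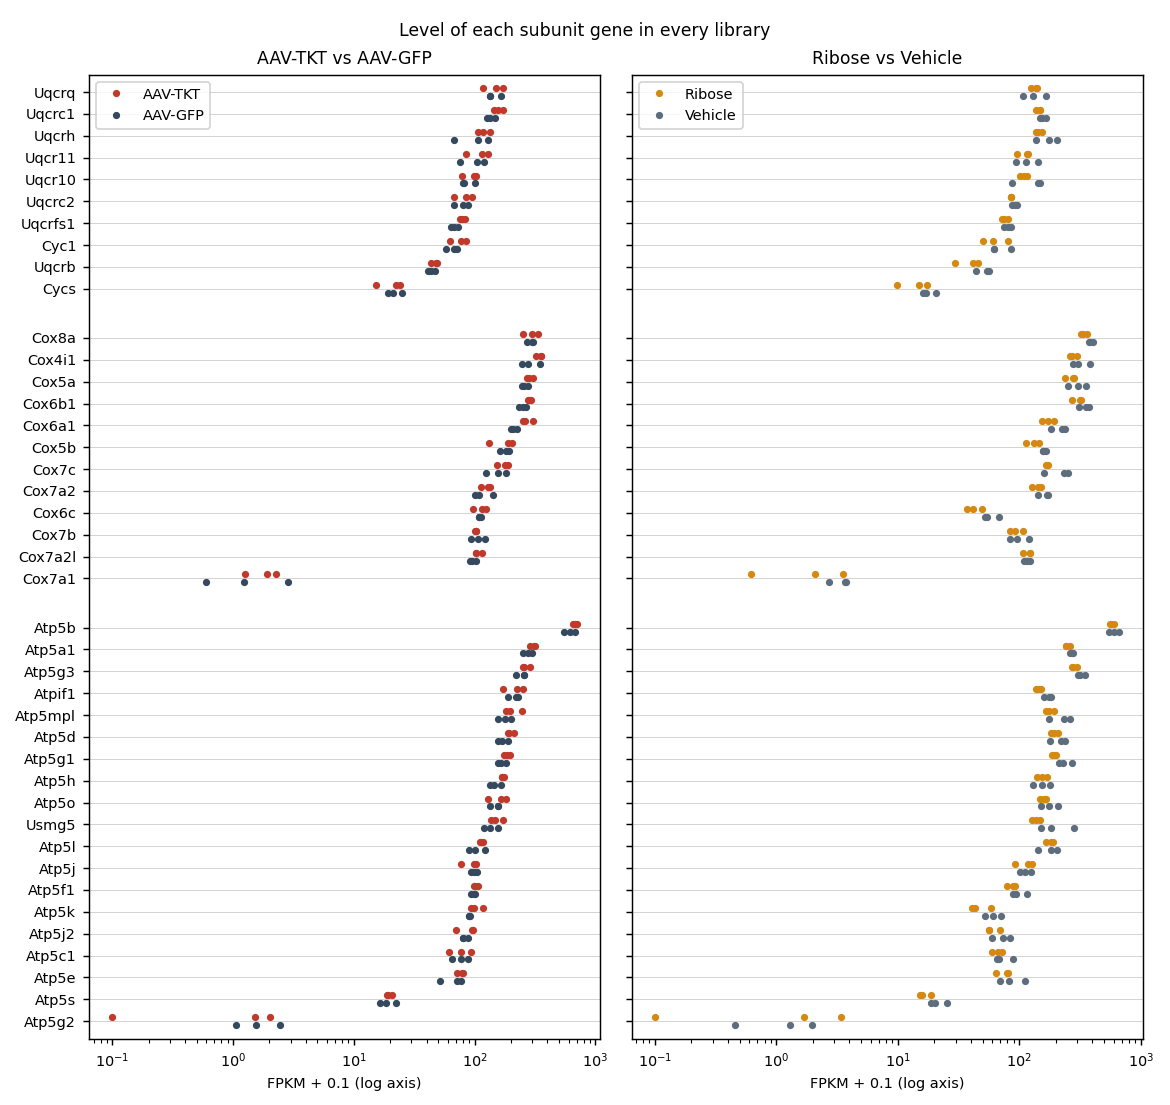
Level of each member in every library, with FPKM + 0.1 on a log axis and 1 point per library. Genes are grouped as complex III with cytochrome c, complex IV and ATP synthase and ordered by AAV-GFP level, and points of the groups largely overlap, with Atp5b at the top of the scale and Cox7a1 and Atp5g2 at the bottom.

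Tissue-specific paralogs were nearly silent. Cox4i2, Cox6a2, Cox7b2, Cox8b and Cox8c, forms known from lung, muscle or testis, were listed in neither table. Cox6b2, the testis form of subunit VIb, appeared in the ribose table alone, at 0.208, 0 and 0.545 FPKM in Ribose and 0.526, 0.217 and 0.805 FPKM in Vehicle, while its partner Cox6b1 had 319, 269 and 322 FPKM in Ribose and 373, 311 and 354 FPKM in Vehicle. Cox7a1, the heart and muscle form of subunit VIIa, stood at 1.16, 2.16 and 1.82 FPKM in AAV-TKT and 1.12, 0.4998 and 2.76 FPKM in AAV-GFP, and at 3.45, 2.00 and 0.517 FPKM in Ribose and 2.62, 3.57 and 3.63 FPKM in Vehicle. Of the same family, Cox7a2, the widely expressed form, had 113, 133 and 128 FPKM in AAV-TKT and 141, 99.8 and 109 FPKM in AAV-GFP, and 151, 143 and 128 FPKM in Ribose and 174, 142 and 169.8 FPKM in Vehicle. Cox7a2l, another gene of that family, had 102.8, 115 and 101.6 FPKM in AAV-TKT and 101.8, 94.7 and 92.1 FPKM in AAV-GFP, and 123, 123 and 108 FPKM in Ribose and 108, 123 and 116 FPKM in Vehicle. The groups overlapped in both genes and both experiments. Cox7b, the partner of the unlisted Cox7b2, had 101.2, 102.8 and 101.8 FPKM in AAV-TKT and 121, 107 and 94.0 FPKM in AAV-GFP, and 107, 83.6 and 92.5 FPKM in Ribose and 96.1, 83.4 and 120.3 FPKM in Vehicle, again with overlap. Cox7a1 thus made up 0.728% ± 0.169 of the summed family FPKM in AAV-TKT and 0.689% ± 0.582 in AAV-GFP (SD, n = 3 each). A second gene with the symbol Atp5o, which overlaps the first on the same strand, was listed in the ribose table at up to 0.557 FPKM in Ribose and 0.849 FPKM in Vehicle and was not tested.

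Of 14 paralog shares compared in the families of Cox6b, Cox7a and subunit c, the smallest exact two-sided permutation p was 0.2 (0.8 after Benjamini-Hochberg adjustment), where 3 against 3 libraries can reach 0.1 at best. The share of Cox7a2l among its family was 45.4% ± 0.816 in Ribose and 41.3% ± 3.93 in Vehicle (SD, n = 3 each, exact permutation p = 0.2), with the groups overlapping.

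Subunit c of ATP synthase is made from Atp5g1, Atp5g2 and Atp5g3, whose precursors differ in their import signals and give the same mature protein. Atp5g3 was the main gene, at 252, 287 and 258 FPKM in AAV-TKT and 254, 218 and 258 FPKM in AAV-GFP, followed by Atp5g1 at 174, 194 and 186 FPKM in AAV-TKT and 179.9, 164 and 155 FPKM in AAV-GFP. Atp5g2 was listed at 1.43, 0 and 1.91 FPKM in AAV-TKT and 0.955, 2.34 and 1.45 FPKM in AAV-GFP, and at 0, 3.33 and 1.60 FPKM in Ribose and 1.195, 0.356 and 1.87 FPKM in Vehicle. The transcribed processed pseudogene Gm10175 had 56.7, 86.2 and 77.5 FPKM in AAV-TKT and 79.3, 71.9 and 72.0 FPKM in AAV-GFP, and 96.6, 84.7 and 78.4 FPKM in Ribose and 109, 119.8 and 104.2 FPKM in Vehicle. All of its 31-base words occur in Atp5g2 transcripts. The sequences are shown because reads from identical stretches cannot be assigned to 1 gene. They are the first 120 of the last 210 coding bases before the stop codon, from GENCODE M21 transcripts on GRCm38, with the bases that differ from Atp5g2 in capitals.
Atp5g2, chromosome 15: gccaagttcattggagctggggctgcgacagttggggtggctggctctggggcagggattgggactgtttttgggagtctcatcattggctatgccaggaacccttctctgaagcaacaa
Gm10175, chromosome 7: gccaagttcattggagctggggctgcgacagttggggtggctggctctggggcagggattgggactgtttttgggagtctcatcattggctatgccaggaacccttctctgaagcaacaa
Atp5g1, chromosome 11: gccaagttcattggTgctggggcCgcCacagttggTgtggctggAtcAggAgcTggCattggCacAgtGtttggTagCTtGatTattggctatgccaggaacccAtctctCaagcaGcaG
Atp5g3, chromosome 2: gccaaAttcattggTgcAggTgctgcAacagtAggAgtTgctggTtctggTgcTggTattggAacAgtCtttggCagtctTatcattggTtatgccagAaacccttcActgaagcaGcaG
Gm10175 matched Atp5g2 at every one of the 210 bases, while Atp5g1 differed at 33 and Atp5g3 at 45. Of the 1641 words of 31 bases in Atp5g2 transcripts, 40.2% were found in other genes, Gm10175 among them, so reads from those stretches can not be told from reads of these genes. Atp5g2 held 0.254% ± 0.225 of the subunit c FPKM in AAV-TKT and 0.393% ± 0.198 in AAV-GFP, and with Gm10175 added to it 14.1% ± 1.82 and 15.7% ± 0.605 (SD, n = 3 each). FPKM is scaled per kilobase, and Gm10175 spans fewer bases than the 1675 exon bases of Atp5g2. The sum is therefore not an exact share of Atp5g2 reads. Of the 31-base words of Atp5g1, 14.1% were found in other genes, and of those of Atp5g3 0%.

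**Figure D2:**
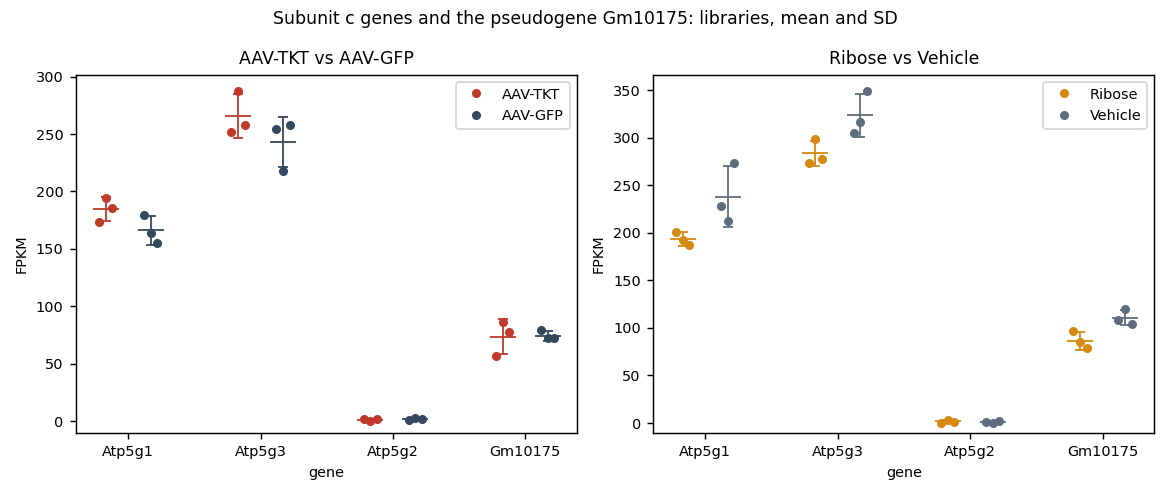
FPKM of the subunit c genes and of the Atp5g2 pseudogene Gm10175 in every library (points), with the mean (dash) and SD (whisker) of 3 libraries per group. In both experiments Atp5g2 lay between 0 and 3.33 FPKM and Gm10175 between 56.7 and 119.8 FPKM.

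Other members share this limit in part. Cycs, which encodes somatic cytochrome c, was at 15.1, 23.9 and 22.2 FPKM in AAV-TKT and 21.2, 24.8 and 19.2 FPKM in AAV-GFP, while Gm10053, annotated as protein-coding and with 96.6% of its words in Cycs transcripts, was at 70.9, 79.9 and 75.2 FPKM in AAV-TKT and 73.7, 71.7 and 75.2 FPKM in AAV-GFP. Cox7c, a small complex IV subunit, was at 171, 169.8 and 166 FPKM in Ribose and 232, 161 and 252 FPKM in Vehicle, and its processed pseudogene Gm12338 at 280.4, 191 and 377 FPKM in Ribose and 145, 199.8 and 254 FPKM in Vehicle. Of 96 annotated copies sharing at least 20% of their words with a member, 6 were listed in the AAV table and 16 in the ribose table. The levels of Atp5g2, Cycs and Cox7c are uncertain for this reason.

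The AAV experiment compared these genes between ganglia with added transketolase and ganglia with the control virus. None of the 41 members passed the threshold in AAV-TKT against AAV-GFP (limma, adjusted p under 0.05), where 0.0152% of the 13178 genes did. At an unadjusted p under 0.05, 4 members were higher (Cox6a1, Uqcrfs1, Cox6b1 and Atp5h) and 0 lower, where 6.23% of all genes were higher and 4.36% lower at that p. By sign 35 of 41 members were higher in AAV-TKT, where 53.7% of all genes were higher and 46.3% lower. The share of higher genes depended on level. When only genes averaging 5 FPKM or more were kept, 34 of 39 members were higher, where 60.2% of the 9104 genes were. In that run 3 members had an unadjusted p under 0.05, where 7.91% of the genes kept were higher and 3.19% lower. With equal FPKM totals 27 members were higher, where 36.7% of all genes were, and with quantile normalization 28, where 55.0% of all genes were. The count of 4 members at an unadjusted p under 0.05 was 1 with equal FPKM totals, where 2.31% of all genes were higher and 7.29% lower. It was 1 with quantile normalization (5.72% and 3.91% of all genes) and 2 with median-of-ratios scaling (4.7% and 5.33%). The median log2 change was 0.12 for complex III with cytochrome c, 0.14 for complex IV and 0.14 for ATP synthase, and 0.014 for all genes tested. With equal FPKM totals these medians were 0.050, 0.073 and 0.070, against -0.048 for all genes, and with quantile normalization 0.064, 0.073 and 0.058, against 0.017. The median half-width of the 95% intervals of the members was 0.27 for a single gene.

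Cox6a1, the ubiquitous form of complex IV subunit VIa, had the smallest p. It was at 306, 262 and 250.2 FPKM in AAV-TKT, against 224, 201 and 209 FPKM in AAV-GFP (log2 change 0.36, SE 0.0951, limma adjusted p = 0.378). Every AAV-TKT library was above every AAV-GFP library, with 272.9 ± 29.5 and 211 ± 11.7 FPKM as means (SD, n = 3 each), a 1.29-fold ratio. Cox6b1, which faces the intermembrane space near the cytochrome c site, was at 284, 276 and 290.3 FPKM in AAV-TKT, against 267, 249 and 233 FPKM in AAV-GFP (log2 change 0.18, SE 0.0766, limma adjusted p = 0.468), also without overlap. The other complex IV genes overlapped between groups. Cox4i1 had a log2 change of 0.26 and Cox5a of 0.14, while Cox8a, Cox6c and Cox5b, a zinc-binding subunit, were at 0.0029, 0.018 and -0.058, with overlapping groups in each.

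In complex III, Uqcrfs1, the Rieske iron-sulfur protein that moves electrons to cytochrome c1, was at 78.4, 83.1 and 76.2 FPKM in AAV-TKT, against 72.6, 64.1 and 67.9 FPKM in AAV-GFP (log2 change 0.21, SE 0.0725, limma adjusted p = 0.412). Its groups did not overlap. Uqcrc1 was at 143, 170.3 and 155 FPKM in AAV-TKT, against 147, 133 and 127 FPKM in AAV-GFP (log2 change 0.20, SE 0.0900, limma adjusted p = 0.479), with AAV-TKT 1 below AAV-GFP 1. The remaining complex III genes overlapped between groups, from a log2 change of -0.10 for Cycs to 0.29 for Uqcrh.

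In ATP synthase, Atp5h, subunit d of the stalk that holds F1 still, was at 169, 176 and 168 FPKM in AAV-TKT, against 166, 135 and 144 FPKM in AAV-GFP (log2 change 0.21, SE 0.0881, limma adjusted p = 0.471), without overlap. Atp5d, the delta subunit of the rotor, was at 188, 210.01 and 192 FPKM in AAV-TKT, against 189, 156 and 169.8 FPKM in AAV-GFP (log2 change 0.20, SE 0.0919, limma adjusted p = 0.489), and AAV-GFP 1 lay above AAV-TKT 1. Atp5k, subunit e at the dimer interface, was the other gene whose groups did not overlap. By role the median log2 change was 0.15 for the 5 F1 genes, 0.075 for the 4 genes of the peripheral stalk, 0.13 for the 3 subunit c genes and 0.15 for the 5 other membrane genes. Atpif1, the inhibitor that blocks the enzyme when it runs in reverse, stood at 0.017. Over all members 5 were higher without overlap and 0 lower, where 11.3% of all genes were higher without overlap and 7.2% lower.

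**Figure D3:**
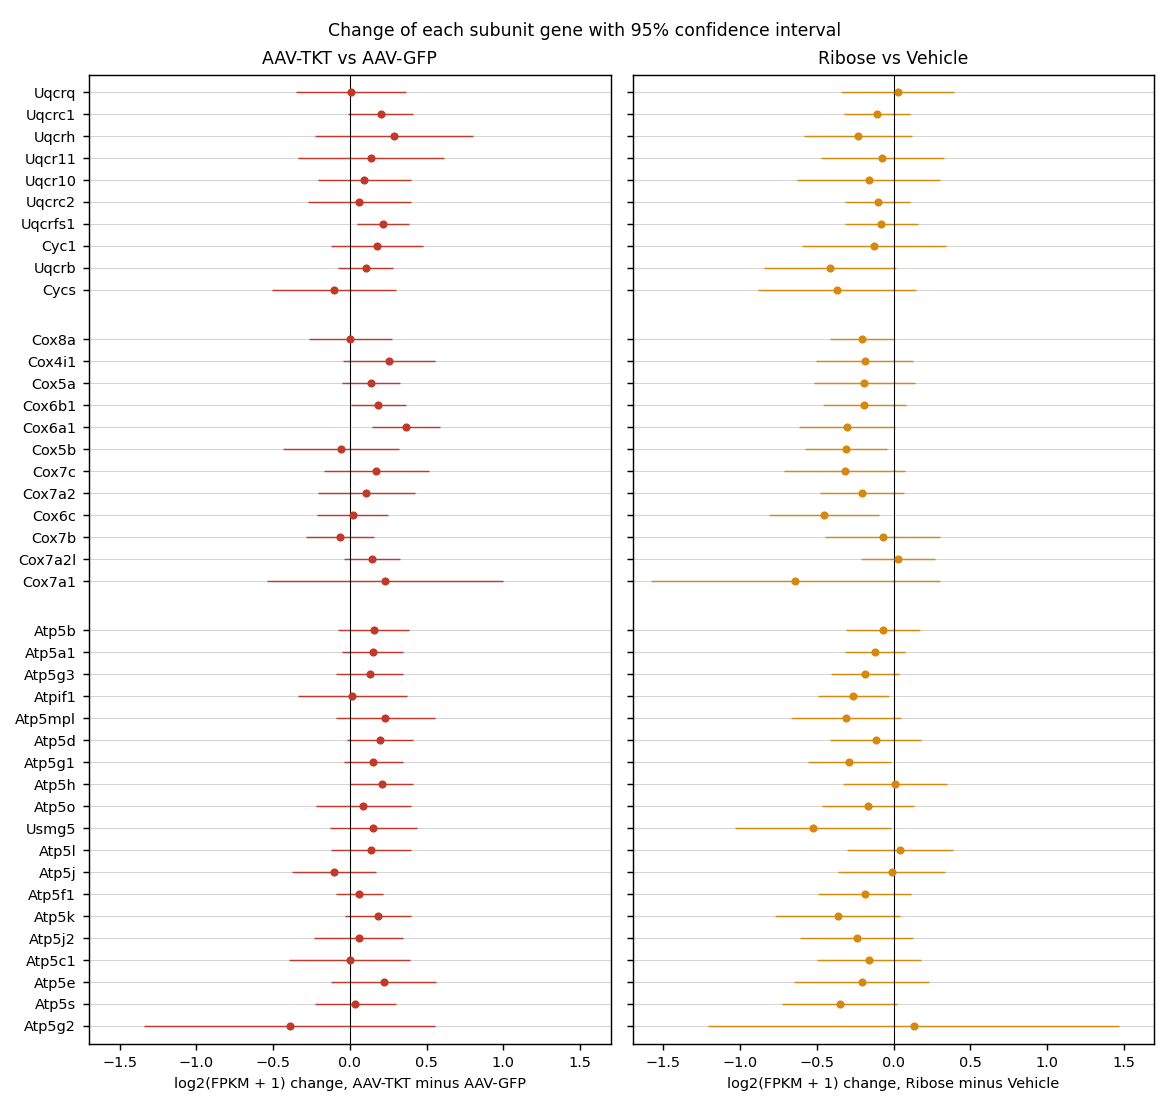
Change of each member on the log2(FPKM + 1) scale, AAV-TKT minus AAV-GFP on the left and Ribose minus Vehicle on the right, with 95% confidence intervals from limma. Most points lie above 0 on the left and below 0 on the right, and the interval leaves out 0 for 4 genes on the left and 5 on the right.

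The size of these differences depended on single libraries. AAV-TKT 2 had the highest value of the 6 libraries in 24 of 41 members, and AAV-TKT 1 the lowest in 11. In the controls, AAV-GFP 2 was lowest in 15 members and AAV-GFP 3 in 12. Without AAV-TKT 2 the medians were 0.050, 0.090 and 0.11 for complex III with cytochrome c, complex IV and ATP synthase. In that run 28 members were higher, where 52.3% of all genes were. There 1 member had an unadjusted p under 0.05, where 4.06% of all genes were higher and 3.72% lower at that p. Without AAV-GFP 2 the complex IV median was 0.033, and without AAV-GFP 3 the complex III and ATP synthase medians were 0.074 and 0.090. Without AAV-GFP 1 the complex III median was 0.22 and 10 members had such a p, where 6.19% of all genes were higher and 4.14% lower at it. Without AAV-TKT 1 that median was also 0.22. AAV-TKT 2 also had the lowest satellite glia score of these libraries, a mean log2 deviation of -0.64 over 6 markers, against 0.17 and 0.037 in AAV-TKT 1 and 3 and -0.029 to 0.31 in AAV-GFP.

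The ribose experiment compared the same genes between treated and vehicle ganglia. None of the 41 members tested passed the threshold in Ribose against Vehicle (limma), where 0.00724% of 13804 genes did. At an unadjusted p under 0.05, 5 members were lower (Cox6c, Cox5b, Atpif1, Atp5g1 and Usmg5) and 0 higher, where 1.99% of all genes were lower and 2.8% higher at that p. By sign 36 of 41 were lower in Ribose and 5 higher, where 55.2% of all genes were lower and 44.8% higher. When only genes averaging 5 FPKM or more were kept, 4 of 39 members were higher. Of the 9451 genes kept, 40.1% were higher and 59.9% lower. In that run 5 members had an unadjusted p under 0.05, where 2.18% of the genes kept were lower and 1.81% higher. With quantile normalization 7 were higher, where 46.6% of all genes were. The count of 5 members at an unadjusted p under 0.05 was 2 with equal FPKM totals, where 1.51% of all genes were lower and 2.81% higher. It was 1 with quantile normalization (2.0% and 2.65% of all genes) and 4 with median-of-ratios scaling (1.71% and 2.98%). The median log2 change was -0.12 for complex III with cytochrome c, -0.20 for complex IV and -0.19 for ATP synthase, and -0.023 for all genes tested. With quantile normalization they were -0.0555, -0.13 and -0.11, against -0.016 for all genes. The median half-width of the members' 95% intervals was 0.34 for a single gene.

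Cox6c, a small membrane subunit of complex IV, had the smallest p. It was at 36.7, 41.4 and 48.9 FPKM in Ribose, against 52.2, 54.4 and 68.0 FPKM in Vehicle (log2 change -0.45, SE 0.153, limma adjusted p = 0.970). Every Ribose library lay below every Vehicle library. Cox5b was at 132, 145 and 113 FPKM in Ribose, against 157, 158 and 167 FPKM in Vehicle (log2 change -0.31, SE 0.114, limma adjusted p = 0.9998), again without overlap. Cox8a was the other complex IV gene whose groups did not overlap, at 334, 321 and 360.4 FPKM in Ribose, against 385, 378 and 407 FPKM in Vehicle (log2 change -0.20, SE 0.0898, limma adjusted p = 0.9998). Cox6a1, with the smallest p in the AAV experiment, was at 194, 172 and 155 FPKM in Ribose and 184, 236 and 225 FPKM in Vehicle, where Ribose 1 lay above Vehicle 1.

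In ATP synthase, Atpif1 was at 152, 143 and 137 FPKM in Ribose, against 159, 177 and 183 FPKM in Vehicle (log2 change -0.26, SE 0.0982, limma adjusted p = 0.9998). Atp5g1 was at 201, 193 and 187 FPKM in Ribose, against 228, 213 and 274 FPKM in Vehicle (log2 change -0.29, SE 0.115, limma adjusted p = 0.9998), and Atp5g3 at 274, 299 and 278 FPKM in Ribose, against 305, 317 and 349 FPKM in Vehicle (log2 change -0.19, SE 0.0943, limma adjusted p = 0.9998). Usmg5, a membrane subunit that helps ATP synthase dimers form, was at 137, 128 and 149 FPKM in Ribose, against 181, 152 and 284 FPKM in Vehicle (log2 change -0.52, SE 0.218, limma adjusted p = 0.9998). In these 4 genes no Ribose library reached the lowest Vehicle library, and in Usmg5 Vehicle 3 was far above the other Vehicle libraries. Usmg5 has a pseudogene with the same words, Gm14539, at 0, 6.44 and 18.7 FPKM in Ribose and 0, 0.770 and 0 FPKM in Vehicle. The F1 genes were nearer to 0, with a median of -0.12 over 5 genes and -0.067 for Atp5b, whose groups overlapped. The peripheral stalk had a median of -0.090 and the 5 other membrane genes one of -0.31.

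In complex III with cytochrome c, Uqcrb, a small subunit near the ubiquinone site, was at 41.2, 46.0 and 29.7 FPKM in Ribose, against 54.2, 44.3 and 56.6 FPKM in Vehicle (log2 change -0.41, SE 0.183, limma adjusted p = 0.9998). Cycs was at 14.9, 17.2 and 9.71 FPKM in Ribose, against 16.1, 16.9 and 20.7 FPKM in Vehicle (log2 change -0.37, SE 0.220, limma adjusted p = 0.9998). In both genes Ribose 3 was the lowest library and Ribose 2 lay above the lowest Vehicle library. Uqcrc2, the other core protein, was the complex III gene without overlap, at 86.1, 85.2 and 84.7 FPKM in Ribose and 95.8, 86.8 and 92.6 FPKM in Vehicle. Over all members 10 were lower without overlap (Uqcrc2, Cox5b, Cox6c, Cox8a, Atp5a1, Atp5g1, Atp5g3, Atp5s, Atpif1 and Usmg5) and 0 higher, where 5.35% of all genes were lower without overlap and 4.28% higher.

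Vehicle 3 stood above the other ribose-experiment libraries. It had the highest value of the 6 libraries in 32 of 41 members, whereas Vehicle 2 was lowest in 8, Ribose 3 in 17 and Ribose 2 in 10. Summed over the 43 listed members, the genes took 1.11%, 1.06% and 1.16% of the FPKM total in Ribose and 1.20%, 1.08% and 1.47% in Vehicle, so the groups overlapped and Vehicle 3 stood above the rest. Without Vehicle 3 the medians were -0.050, -0.17 and -0.078 for complex III with cytochrome c, complex IV and ATP synthase. In that run 10 of 41 members were above 0, where 46.5% of all genes were. There 1 member had an unadjusted p under 0.05, where 1.5% of all genes were higher and 1.14% lower at that p. Without Vehicle 2 the medians were -0.21, -0.29 and -0.24, and 14 members had such a p, where 2.62% of all genes were higher and 2.93% lower. Vehicle 3 had the highest satellite glia score of these libraries (0.89, against 0.54 and -0.28 in Vehicle 1 and 2), Ribose 2 the lowest (-1.43), and the part of cell mixture in the differences was not tested.

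**Figure D4:**
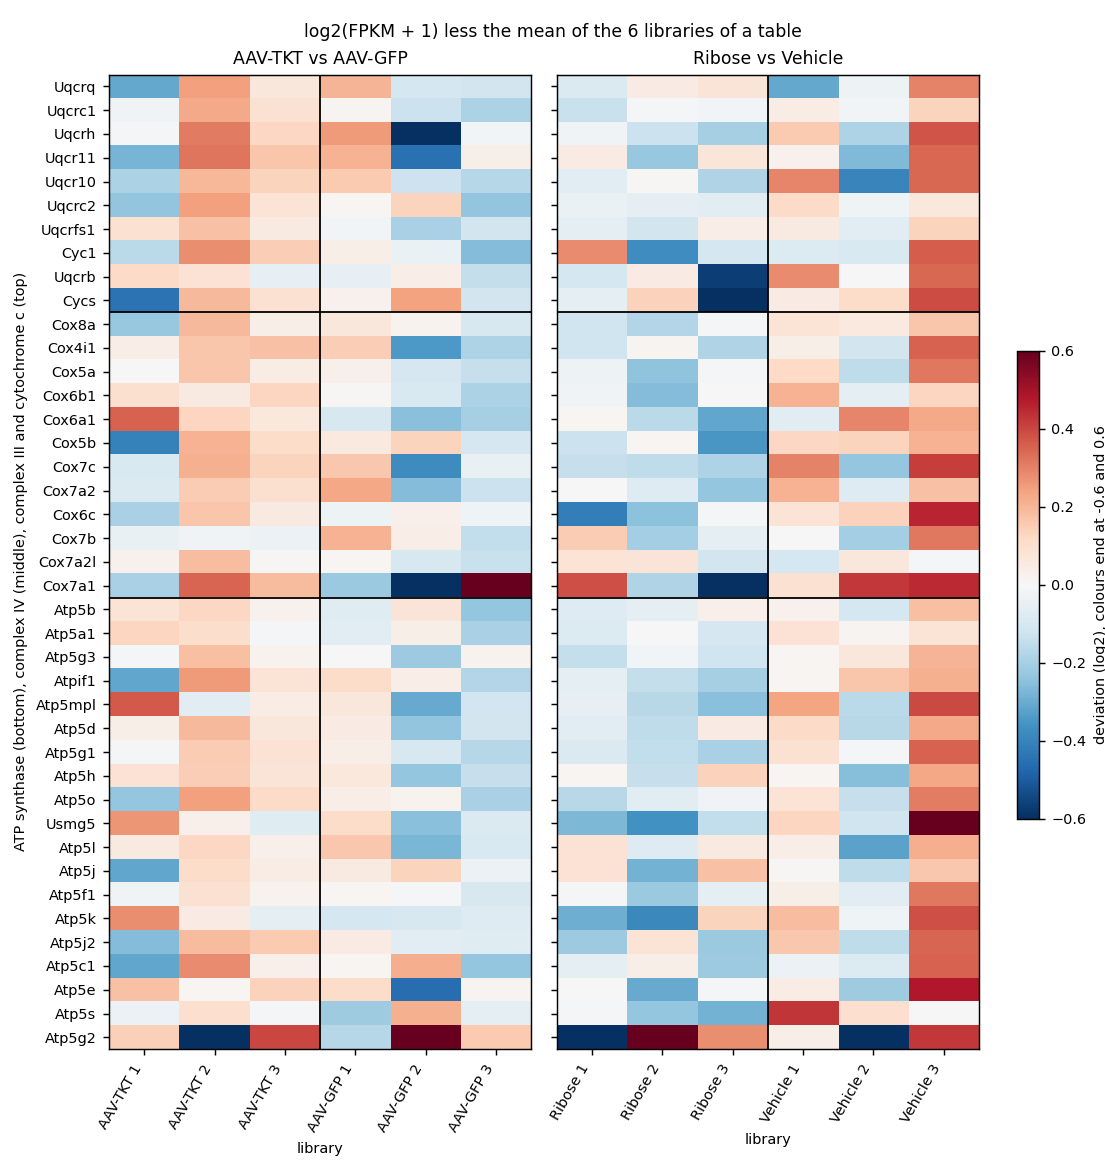
Deviation of each member in each library from the mean of the 6 libraries of its table, on the log2(FPKM + 1) scale, with AAV-TKT left of AAV-GFP and Ribose left of Vehicle. Vehicle 3 is the highest library in 32 of 41 genes and AAV-TKT 2 in 24.

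The summed share in the AAV experiment was 1.39%, 1.49% and 1.45% of the FPKM total in AAV-TKT and 1.44%, 1.37% and 1.34% in AAV-GFP. Here too the groups overlapped, with AAV-TKT 1 below AAV-GFP 1. The shares of ATP synthase alone were 0.724% ± 0.00947 in AAV-TKT and 0.693% ± 0.0196 in AAV-GFP (SD, n = 3 each), and their libraries did not overlap.

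**Figure D5:**
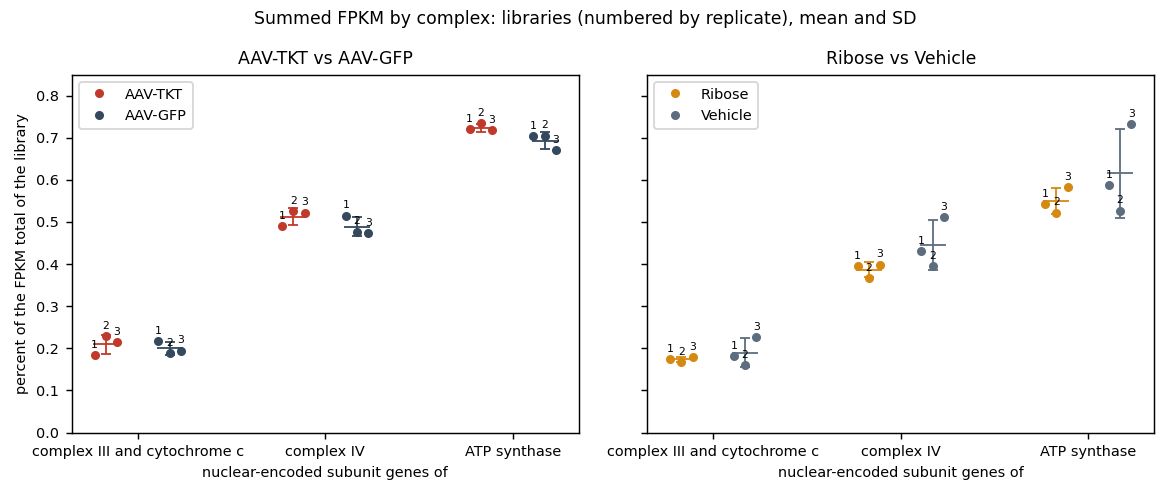
Summed FPKM of the members of each complex as a percentage of the FPKM total of the library, with points numbered by replicate and the mean and SD of 3 libraries. Vehicle 3 is the highest ribose-experiment library in each complex, and AAV-TKT and AAV-GFP points overlap except in ATP synthase.

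The difference between the AAV and the ribose effect was tested in all 12 libraries over 12853 genes. None of the 41 members passed (limma), where 0.00778% of the genes did. At an unadjusted p under 0.05, 13 members had a larger AAV than ribose effect and 0 a smaller one. At that p 4.22% of all genes had a larger and 2.62% a smaller one. By sign 38 of 41 differences were above 0, where 58.6% of all genes were above 0 and 41.4% below. When only genes averaging 5 FPKM or more were kept, 37 of 39 differences were above 0. Of the 8898 genes kept, 65.1% were above 0 and 34.9% below. The count of 13 was the same in that run, where 5.26% of the genes kept had a larger and 1.79% a smaller AAV effect. That count of 13 was 2 with equal FPKM totals, where 1.77% of all genes had a larger and 3.67% a smaller AAV effect at that p. It was 1 with quantile normalization (3.35% and 2.09% of all genes) and 9 with median-of-ratios scaling (2.91% and 3.17%). The median difference of effects was 0.28 for complex III with cytochrome c, 0.35 for complex IV and 0.28 for ATP synthase, and 0.053 for all genes, or 0.16, 0.20 and 0.12 with quantile normalization, against 0.045 for all genes. The smallest p values belonged to Cox6a1, with a difference of 0.67 (SE 0.169, limma adjusted p = 0.484), and Atp5g1, with 0.44 (SE 0.142, limma adjusted p = 0.669), both picked out after their values were seen. Without Vehicle 3 the count was 5, where 3.31% of all genes had a larger and 2.31% a smaller AAV effect at that p. It was 6 without AAV-TKT 2 (2.63% and 1.92% of all genes) and 6 without AAV-GFP 3 (2.57% and 1.73%). Without Vehicle 2 it was 21 (6.98% and 3.94%).

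Of the genes that build these complexes, none passed the threshold in either experiment (limma). Of the assembly factors tested, 6 for complex III, 24 for complex IV and 4 for ATP synthase, 6 were higher and 0 lower at an unadjusted p under 0.05 in AAV-TKT, where 6.23% of all genes were higher and 4.36% lower at that p. In Ribose 1 was higher and 0 lower, where 2.8% of all genes were higher and 1.99% lower. Uqcc1, a complex III assembly factor needed for cytochrome b, was at 46.9, 54.0 and 48.2 FPKM in AAV-TKT, against 40.1, 36.9 and 41.8 FPKM in AAV-GFP (log2 change 0.32, SE 0.0811, limma adjusted p = 0.378). Atpaf1, a chaperone of the F1 beta subunit, was at 33.1, 35.4 and 33.3 FPKM in AAV-TKT, against 28.6, 30.3 and 26.7 FPKM in AAV-GFP (log2 change 0.24, SE 0.0716, limma adjusted p = 0.378). Both were without overlap. In the ribose experiment Uqcc3, another complex III assembly factor, was at 12.6, 11.5 and 11.9 FPKM in Ribose, against 7.02, 9.45 and 10.0 FPKM in Vehicle (log2 change 0.41, SE 0.170, limma adjusted p = 0.9998), and Sco2, a copper chaperone of complex IV, at 9.81, 9.07 and 8.60 FPKM in Ribose, against 11.0, 12.2 and 11.9 FPKM in Vehicle (log2 change -0.32, SE 0.139, limma adjusted p = 0.9998). Uqcc3 was higher and Sco2 lower in every Ribose library than in every Vehicle library.

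The 13 regulators of nuclear respiratory genes had 0 members at an unadjusted p under 0.05 in either experiment and medians of 0.018 in AAV-TKT and 0.063 in Ribose. At that p 6.23% of all genes were higher and 4.36% lower in AAV-TKT, and 2.8% higher and 1.99% lower in Ribose. With so few genes a count of 0 does not show that the regulators were unchanged. Ppargc1b, a coactivator of mitochondrial biogenesis, was at 3.23, 3.31 and 3.57 FPKM in AAV-TKT, against 2.99, 2.80 and 2.89 FPKM in AAV-GFP (log2 change 0.17, SE 0.0945, limma adjusted p = 0.544), without overlap. It was at 3.86, 2.89 and 3.39 FPKM in Ribose, against 1.81, 2.01 and 3.39 FPKM in Vehicle (log2 change 0.39, SE 0.2545, limma adjusted p = 0.9998), with overlap. Esrra, the nuclear receptor it works with, was at 0.15 in AAV-TKT. Gabpa, the ETS-family subunit of NRF2, was at 8.94, 7.01 and 10.2 FPKM in Ribose, against 5.73, 6.86 and 5.98 FPKM in Vehicle (log2 change 0.42, SE 0.185, limma adjusted p = 0.9998), with every Ribose library above every Vehicle library.

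The subunits encoded by mitochondrial DNA in the same complexes varied far more between libraries. mt-Atp6, the proton channel subunit of ATP synthase, was at 106, 113 and 271 FPKM in Ribose, against 371, 339 and 429 FPKM in Vehicle (log2 change -1.35, SE 0.339, limma adjusted p = 0.789), and mt-Co1, the catalytic subunit of complex IV, at 592, 412 and 809 FPKM in AAV-TKT, against 868, 731 and 1128 FPKM in AAV-GFP (log2 change -0.62, SE 0.257, limma adjusted p = 0.468). mt-Atp8, the other ATP synthase subunit among them, was at 409, 55.0 and 208 FPKM in Ribose, against 275, 191 and 343 FPKM in Vehicle (log2 change -0.64, SE 0.654, limma adjusted p = 0.9998), with overlap. As a list the 6 genes had medians of -0.40 in AAV-TKT and -0.14 in Ribose, with 5 of 6 lower in AAV-TKT and 4 of 6 lower in Ribose. In the ribose experiment the groups overlapped in 5 of the 6 genes, all but mt-Atp6. Their mean deviation from the gene means, on the log2 scale, was 0.20, -0.90 and 0.22 in AAV-TKT, against 0.067, -0.30 and 0.72 in AAV-GFP, so AAV-TKT 2 was the lowest library, AAV-GFP 3 the highest, and the groups overlapped.

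Whether these values are particular to complexes III, IV and ATP synthase was not tested. Complex I had 33 of 36 genes above 0 and a median of 0.14 in AAV-TKT, and 1 of 36 above 0 and -0.14 in Ribose. Mitochondrial ribosomal proteins had medians of 0.077 in AAV-TKT and -0.13 in Ribose, and the 4 genes of complex II had 0.14 and -0.013. In AAV-TKT the neuron markers had a median of 0.21, with 7 of 8 above 0 and summed levels of 6720.0 to 7483 FPKM in AAV-TKT and 5617 to 6375 FPKM in AAV-GFP. The remaining neuron marker, at -0.30, was lower without overlap, while 4 were higher without overlap. Over all genes 11.3% were higher without overlap and 7.2% lower. Satellite glia (median -0.33, 664 to 1127 FPKM in AAV-TKT and 974 to 1268 FPKM in AAV-GFP) and Schwann cell markers (median -0.32, 345 to 375 FPKM in AAV-TKT and 410.0 to 435 FPKM in AAV-GFP) were lower, with overlapping sums for satellite glia. In Ribose the neuron median was -0.033, at 6110.0 to 6566 FPKM in Ribose and 6227 to 6983 FPKM in Vehicle, and satellite glia were at 276 to 929.7 FPKM in Ribose and 642 to 1510.0 FPKM in Vehicle (median -0.87). Large-diameter neuron markers had a median of 0.22 in AAV-TKT, with 6 of 6 above 0 and sums of 1064 to 1209 FPKM in AAV-TKT and 842 to 958 FPKM in AAV-GFP. Red cell markers had a median of -1.64, with 6 of 6 below 0 and sums of 71.9 to 94.4 FPKM in AAV-TKT and 113 to 476 FPKM in AAV-GFP, and the 5 of 8 macrophage markers listed a median of -0.47, with sums of 12.3 to 18.3 FPKM in AAV-TKT and 33.6 to 45.8 FPKM in AAV-GFP. Neutrophil markers were lower in AAV-TKT (median -2.27, 7 of 7 below 0, 19.4 to 30.6 FPKM in AAV-TKT and 93.96 to 254 FPKM in AAV-GFP), and the part of these cell types in the AAV values was not tested. Skeletal muscle, whose fibres are rich in these complexes, had 0 of 11 markers listed in the AAV table, and 8 of 11 in the ribose table at summed levels of 10.95 to 25.6 FPKM in Ribose and 3.91 to 11.2 FPKM in Vehicle, with no Tnnt3, Tnnc2 or Mb.

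The promoters of the subunit genes were read for short motifs of known regulators of respiratory genes, on both strands, in RefSeq windows of GRCm38.p6 from 250 bases before to 50 after each start, which 36 of the 48 members had. The NRF1 motif GCGCANGCG was found in 12 of 36 members (33.3%), against 7.03% of 27025 genes with a window and 15.5% of the 9749 that were also in the AAV comparison. The ETS motif CCGGAAG was in 11 (30.6%), against 9.93% and 19.9%. The YY1 motif AAGATGG was in 4 (11.1%, against 7.28% and 8.56%) and the ERR motif TCAAGGTCA in 1, Atp5g3. Both NRF1 and ETS motifs were in 5 members, Atp5h, Atp5k, Atp5l, Cox6a1 and Uqcr11, 13.9% against 1.49% of all genes and 3.54% of those in the AAV comparison. One promoter per complex is shown, 5′ to 3′ along the gene, with NRF1 and ETS matches in capitals.
Cox6a1 promoter, chr5:115348909-115349208, minus strand: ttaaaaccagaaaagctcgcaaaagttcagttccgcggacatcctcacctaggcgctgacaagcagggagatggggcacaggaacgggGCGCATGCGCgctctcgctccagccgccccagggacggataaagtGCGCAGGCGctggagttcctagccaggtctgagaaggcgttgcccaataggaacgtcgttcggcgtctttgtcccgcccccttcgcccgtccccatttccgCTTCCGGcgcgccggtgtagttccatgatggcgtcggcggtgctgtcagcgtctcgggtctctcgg
Atp5h promoter, chr11:115419870-115420169, minus strand: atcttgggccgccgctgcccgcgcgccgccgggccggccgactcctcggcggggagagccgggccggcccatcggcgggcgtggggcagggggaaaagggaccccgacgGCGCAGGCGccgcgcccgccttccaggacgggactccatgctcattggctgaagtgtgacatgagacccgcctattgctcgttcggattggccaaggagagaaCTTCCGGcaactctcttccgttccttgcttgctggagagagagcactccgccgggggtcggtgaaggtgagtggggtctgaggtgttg
Uqcr11 promoter, chr10:80406772-80407071, minus strand: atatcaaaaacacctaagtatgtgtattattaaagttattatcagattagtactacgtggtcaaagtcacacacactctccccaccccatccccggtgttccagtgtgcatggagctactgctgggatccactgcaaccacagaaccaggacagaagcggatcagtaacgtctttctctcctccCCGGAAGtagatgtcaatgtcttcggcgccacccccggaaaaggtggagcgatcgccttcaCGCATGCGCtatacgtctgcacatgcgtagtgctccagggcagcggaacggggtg
In Cox6a1 the first run in capitals holds the NRF1 motif on both strands, at positions that overlap, and the ETS match lies just before the start. A match is a run of letters and not a measured binding site.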

How the data were processed

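RNA of 12 libraries was extracted with the RNeasy Micro kit and made into polyA libraries with a directional NEBNext Ultra II kit, per the labels' protocols. Reads were handled with bcl2fastq 2.20, FastQC and Trim Galore on GRCm38, per the submitters' processing notes, which name no aligner, counter or annotation. The authors deposited FPKM in a table for each experiment, and every gene of the AAV table averages 1 FPKM or more. Each table was tested alone with limma 3.58.1 in R 4.3.3, on log2(FPKM + 1) of genes averaging 1 FPKM or more (trended prior, Benjamini-Hochberg adjusted p under 0.05), so fold changes of low genes are understated. The difference of effects used all 12 libraries in 1 fit. The procedure was tested on simulated data with changes larger than those of any member. That test does not show whether changes as small as those of the members could be called. GENCODE M21 gave a symbol to 13170 of 13178 and 21612 of 21650 gene IDs, and copies were found by shared 31-base words of transcripts. Promoters came from RefSeq (GRCm38.p6).

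Members and lists were chosen with earlier results of these data known. Members with values in every library were, in each complex, the 3 with the highest mean in AAV-GFP, the 2 with the smallest p in each experiment and all members of the paralog families; from assembly factors and regulators, the 2 with the smallest p in each experiment. Usmg5, Uqcrc2, Cox7c, Atp5k, mt-Atp6, mt-Atp8, mt-Co1 and the copies were added after their values were seen. The read depth is unknown, so no counting error is given.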

Additional observations from a re-analysis of the deposited data

How the results depend on the processing

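No member passed the threshold in any comparison under any alternative run. Over all genes the AAV comparison, with 2 calls, gave 5 with a pseudocount of 0.1 FPKM, 4 with a mean of at least 5 FPKM, 4 with equal FPKM totals, 23 with array weights, 8 with protein-coding genes only and 4 with the length trend removed, and 3 to 41 without single libraries. The ribose comparison, with 1 call, gave 2 with a pseudocount of 0.5 FPKM, 2 with equal totals, 0 with protein-coding genes only (limma) and 2 with the length trend removed, and 1 to 4 without single libraries. The difference of effects gave 2 with a pseudocount of 0.1 FPKM and 2 with the length trend removed, and 1 to 3 without single libraries. In AAV-TKT the medians of complex III with cytochrome c, complex IV and ATP synthase were 0.0501, 0.0727 and 0.0701 with equal totals, 0.0639, 0.0727 and 0.0579 with quantile normalization and 0.0946, 0.1176 and 0.1149 with median-of-ratios scaling. The ATP synthase median was 0.0895 to 0.1561 without single libraries, and its difference of effects was 0.1202 with quantile normalization.

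Sign changes were followed only for the members chosen by level, p or paralog family. Over all 41 members, 35 were above 0 in AAV-TKT, against 27 with equal totals and 28 with quantile normalization, so others turned too. These log2 changes of the chosen members turned their sign. In AAV-TKT against AAV-GFP they were -0.0611 for Uqcrq, -0.0671 for Cox8a, -0.052 for Cox6c and -0.053 for Atpif1 with equal totals, -0.0162 for Uqcrq, -0.022 for Cox8a, -0.0072 for Cox6c and -0.0079 for Atpif1 with median-of-ratios scaling and -0.0576 for Uqcrq, -0.0699 for Cox8a, -0.0512 for Cox6c and -0.084 for Atpif1 with quantile normalization. They were -0.0213 for Uqcrq, 0.0164 for Cycs, 0.0344 for Cox5b and 0.0759 for Atp5g2 with array weights, and -0.0251 for Uqcrq and -0.0065 for Atpif1 with the length trend removed. In Ribose against Vehicle they were -0.0515 for Atp5h and -0.2049 for Atp5g2 with array weights and -0.3338 for Atp5g2 with a pseudocount of 0.1 FPKM. Adding near-identical copies to their member, an alternative chosen after seeing the data, gave 0.0034 for Cycs in AAV-TKT and -0.3443 for Atp5g2 in Ribose. Without single libraries the ranges in AAV-TKT were -0.1134 to 0.1631 for Uqcrq, -0.2272 to 0.0901 for Cycs, -0.0947 to 0.1162 for Cox8a, -0.0622 to 0.1191 for Cox6c, -0.1775 to 0.1309 for Cox5b, -0.1056 to 0.176 for Atpif1, -0.0746 to 0.5881 for Cox7a1, -0.6929 to 0.0766 for Atp5g2 and -0.1568 to 0.0211 for Cox7b. In Ribose they were -0.1203 to 0.1829 for Uqcrq, -0.1356 to 0.0056 for Atp5b, -0.1167 to 0.1254 for Atp5h, -0.015 to 0.0937 for Cox7a2l, -0.3437 to 0.714 for Atp5g2 and -0.1929 to 0.0687 for Cox7b. The cause of these changes was not tested.

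Whether the replicate numbers pair the libraries is not settled. Same-numbered libraries had correlations of 0.033, 0.071 and -0.014 of their deviations in the AAV experiment and 0.042, 0.357 and 0.16 in the ribose experiment. AAV-TKT 1, AAV-TKT 3 and Ribose 1 correlated best with another number, and AAV-TKT 2, Ribose 2 and Ribose 3 with their own. With the replicate number as a block the AAV comparison called 0 genes, the ribose comparison 1 and the difference of effects 1, and 0 members passed in each (limma). Members at an unadjusted p under 0.05 numbered 3, 11 and 16. Of all genes, 6.62% were higher and 5.46% lower at that p in the AAV comparison and 3.55% and 3.64% in the ribose comparison. For the difference of effects these shares were 6.45% and 3.45%. The unknown read depth limits what can be said of members near 1 FPKM, such as Cox7a1 and Atp5g2.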
